A study of Ostreococcus tauri with 30 samples.

Results

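Protein entry into the endoplasmic reticulum, N-glycosylation, glycan trimming, disposal of misfolded proteins and export to the Golgi are described here for the marine green picoalga Ostreococcus tauri after a copper challenge. They were read as KEGG modules, which are named sets of gene families that form a pathway or a complex. The set was chosen by module number, and 7 of the 9 numbers sought were in the deposited table of 236 modules: M00401 (Sec61 complex), M00402 (translocon-associated protein complex, TRAP), M00072 (N-glycosylation by oligosaccharyltransferase, OST), M00073 (N-glycan precursor trimming), M00403 (HRD1/SEL1 complex), M00404 (COPII complex) and M00065 (synthesis of the GPI anchor). M00075 and M00400 were not analysed here.

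In eukaryotes most secreted and membrane proteins enter the endoplasmic reticulum through the Sec61 channel, beside which TRAP sits and helps some proteins in. OST moves a preassembled glycan onto asparagine residues of the entering chain, and trimming enzymes then shorten that glycan while the protein folds. Proteins that fail to fold are handed to the HRD1/SEL1 ubiquitin ligase for destruction in the cytosol, a route called ERAD, and folded ones leave in vesicles coated by COPII.

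The cultures were all of strain RCC745, grown as liquid cultures with 12 h of light and 12 h of darkness. Controls without added copper were taken at 0, 1, 4 and 12 h, and cultures given a lower or a higher copper addition at 1, 4 and 12 h, with 3 libraries in each of the 10 groups. The sample labels give the additions as 25 and 250 µM copper and the treatment protocol as 0.4 and 2 µM. Because the 2 sources differ, the additions are called lower and higher copper. The labels do not say whether replicates came from separate cultures, so p-values measure only the spread between these libraries, which may be technical. RNA was taken from whole cultures, so a change in the make-up of the culture and a change in RNA per cell cannot be told apart.

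Levels are CPM, a module's count relative to the TMM-scaled total of all module counts in the library, and changes are log2 differences with their standard error (SE). A module was called at an adjusted p under 0.05 in edgeR's quasi-likelihood test, adjusted by Benjamini-Hochberg over all 236 modules of a comparison. Module counts ran from 27534827 to 62565779 per library, and those of the 7 secretion modules from 2526 (TRAP) to 341175 (HRD1/SEL1). A gene family can be counted in several modules and module lengths are not given, so levels were compared within a module, not between modules. For control replicate 3 at 1 h and at 4 h the module total was 6.06 and 20.1 times the gene total of the same library, against 9.89 to 12.2 times in the other 28 libraries, which leaves the labels of this pair in doubt. The results that rest on them are given as deposited and, where a call changes, with the pair exchanged or left out.

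Of the 7 modules, TRAP and OST were called above the control at 12 h after the higher copper addition. There 16.5% of all modules were called, 8.9% rising and 7.63% falling. TRAP was 1.85-fold and OST 1.18-fold as high as in the control of the same time. Of 16 alternative fits, 6 lost the call of TRAP and 7 that of OST. The other 5 modules (Sec61, trimming, HRD1/SEL1, COPII and GPI anchor) were called in none of the 17 tests by edgeR, nor by DESeq2. Over all 10 groups, 1 of the 7 modules, OST, differed between groups (edgeR adjusted p = 0.0355), beside 29.7% of all modules. That call was lost by leaving out replicate 2 of control 0 h (adjusted p = 0.0529), control 4 h (0.0501) or higher copper 12 h (0.0591), replicates 1 (0.0785) or 3 (0.0755) of higher copper 4 h, or replicate 3 of higher copper 12 h (0.0964).

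TRAP, the complex beside the channel, was the most variable of the 7. Its highest library was 3.58 times its lowest, against 1.35 to 1.49 times for the other 6 modules, and the median coefficient of variation within groups was 18.5%. In controls it measured 134, 190 and 239 CPM at 0 h (replicates 1, 2 and 3), 124, 155 and 171 CPM at 1 h, and 183, 173 and 147 CPM at 4 h. At 12 h the control libraries held 144, 121 and 106 CPM. The 12 h controls thus had the lowest mean of the 10 groups, 124 ± 18.7 CPM (SD, n = 3), and overlapped those at 0 h. The step from 0 to 12 h without copper was −0.60 ± 0.29 (log2, SE; edgeR adjusted p = 0.222) and was not called.

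Under lower copper TRAP held 169, 144 and 158 CPM at 1 h and 155, 142 and 158 CPM at 4 h. At 12 h its lower copper libraries spread from 111 through 131 to 222 CPM. As deposited, each lower copper group overlapped the control of its time, but with the doubted pair exchanged or left out the 4 h libraries lay below all the controls. The differences were 0.07 ± 0.29, −0.14 ± 0.29 and 0.32 ± 0.29 at 1, 4 and 12 h (edgeR adjusted p = 0.962, 0.931 and 0.986).

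Under higher copper TRAP held 75.4, 193 and 215 CPM at 1 h, where replicate 1 was the lowest of all 30 libraries. At 4 h it held 164, 190 and 246 CPM and at 12 h 175, 270 and 240 CPM. All 3 libraries of 12 h lay above all 3 controls of that time, but they overlapped the controls at 0 h. The rise at 12 h was 0.89 ± 0.29 (log2, SE; 95% interval 0.28 to 1.495; edgeR adjusted p = 0.0417), from 124 ± 18.7 to 228 ± 48.9 CPM (SD, n = 3). At 1 and 4 h the differences were 0.11 ± 0.29 and 0.26 ± 0.29 (edgeR adjusted p = 0.902 and 0.681). Without control 12 h replicates 2 or 3 the 12 h change was 0.87 (edgeR adjusted p = 0.0889) and 0.78 (0.187), and without replicates 2 or 3 of higher copper 12 h it was 0.75 (0.151) and 0.85 (0.125), none of which passed. With both doubted controls left out it was 0.88 (adjusted p = 0.0533), and with module counts scaled by gene-table totals it was 0.83 (adjusted p = 0.116). That scaling with the doubted controls left out or exchanged gave 0.83 as well, and there TRAP was called (edgeR adjusted p = 0.0457 and 0.0428).

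**Figure D1:**
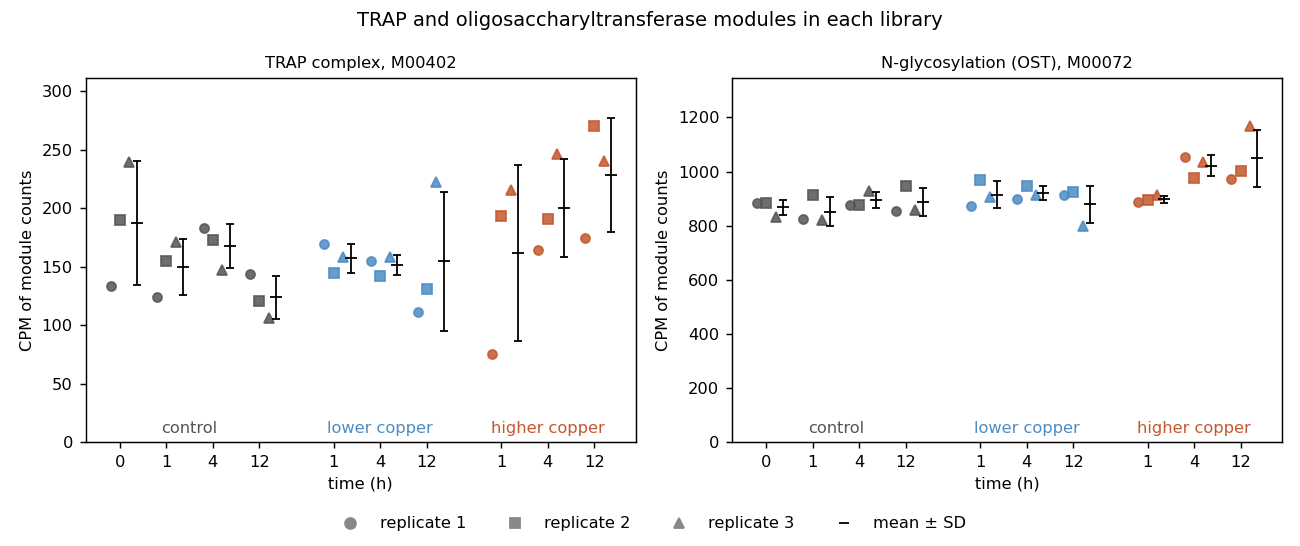
Levels of the TRAP and OST modules in every library, as CPM of module counts (vertical axis, from 0) by time in hours for control, lower copper and higher copper. Marker shapes give the replicate and black bars the mean ± SD of 3 libraries. TRAP reaches 175 to 270 CPM at 12 h of higher copper against 106 to 144 CPM in the control, and OST 974 to 1169 against 855 to 945 CPM.

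OST, the enzyme that attaches the glycan, was far steadier, with a median within-group coefficient of variation of 4.68% against a median of 11.7% over all modules. Its controls ran from 819 to 945 CPM over all 4 times. By replicate they were 885, 884 and 833 CPM at 0 h, 824, 912 and 819 CPM at 1 h, and 876, 877 and 930 CPM at 4 h. At 12 h the controls held 855, 945 and 858 CPM. The control groups overlapped one another, and the later controls differed from 0 h by −0.03 ± 0.08, 0.05 ± 0.08 and 0.03 ± 0.08 (edgeR adjusted p = 0.943, 0.905 and 0.809).

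Under lower copper OST overlapped the controls at each time, though replicate 2 at 1 h and at 4 h lay above every control of its time. It measured 872, 969 and 904 CPM at 1 h, 900, 948 and 915 CPM at 4 h, and 912, 925 and 800 CPM at 12 h. Differences from the control were 0.10 ± 0.08, 0.04 ± 0.08 and −0.01 ± 0.08 (edgeR adjusted p = 0.854, 0.931 and 0.986), so that no call was made. With the doubted pair exchanged or left out, all 3 libraries at 4 h lay above the controls.

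With higher copper OST measured 886, 893 and 912 CPM at 1 h, inside the span of the 1 h controls. It held 1055, 977 and 1034 CPM at 4 h and 974, 1003 and 1169 CPM at 12 h. At both later times every higher copper library lay above every control of its time and above every control at 0 h. The 12 h rise was 0.24 ± 0.08 (log2, SE; 95% interval 0.08 to 0.40; edgeR adjusted p = 0.0352), from 886 ± 51 to 1048.5 ± 105 CPM (SD, n = 3). The difference at 4 h was 0.19 ± 0.08 (edgeR adjusted p = 0.132, unadjusted p = 0.0205), and that at 1 h 0.07 ± 0.08 (adjusted p = 0.677). With the columns of the doubted controls exchanged, the 4 h difference was 0.25 ± 0.08 and was called (edgeR adjusted p = 0.0483). With gene-table scaling of the columns as deposited it turned to −0.12 (adjusted p = 0.694), and with the doubted controls left out as well it was 0.20 (0.378).

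The 12 h call of OST rested on higher copper 12 h replicate 3, without which the change was 0.16 ± 0.08 (edgeR adjusted p = 0.211). It was also lost without control 12 h replicate 1 (0.22, adjusted p = 0.0963) or replicate 3 (0.21, adjusted p = 0.166). Fitting only the 2 groups compared gave 0.24 (adjusted p = 0.126), and scaling by gene-table totals gave 0.19 (adjusted p = 0.635). That scaling with the doubted controls left out or exchanged gave 0.19 as well (adjusted p = 0.199 and 0.198).

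**Figure D2:**
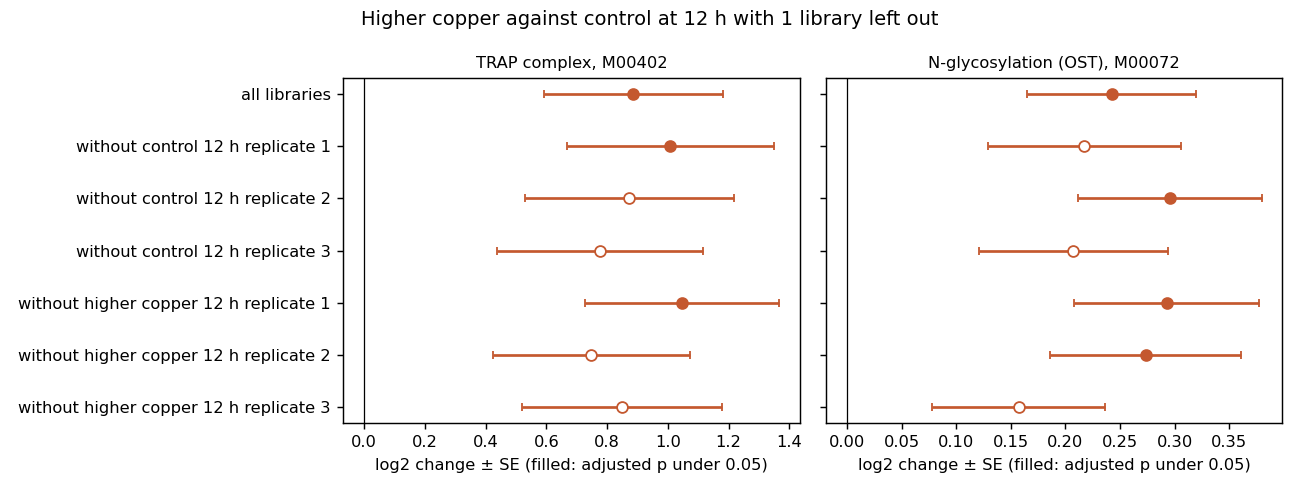
Change of TRAP and OST in higher copper against control at 12 h (log2, horizontal axis, with SE bars) with all libraries and with each of the 6 libraries compared left out. Filled points passed an adjusted p of 0.05. TRAP stays between 0.75 and 1.05 and OST between 0.16 and 0.30, all above 0, and each is called in some of the 6 fits only.

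Between the copper levels, OST stood 0.25 ± 0.08 higher in higher than in lower copper at 12 h, with no overlap between the 3 and 3 libraries. This did not pass in edgeR (adjusted p = 0.0756) and did in DESeq2 (adjusted p = 0.0176). TRAP differed between levels by 0.56 ± 0.29 at 12 h (edgeR adjusted p = 0.27) and by 0.40 ± 0.29 at 4 h (0.465), with overlap at 12 h and none at 4 h. In edgeR 0 of the 7 modules were called between levels at any time, beside 0% of all modules at 1 h and 0.847% at both 4 and 12 h. The unadjusted edgeR p was under 0.05 for 0, 0 and 1 of the 7, the 1 being OST at 12 h. This compares with 9, 42 and 42 of all 236 modules. DESeq2 called 0, 0 and 1 of the 7, beside 0, 11 and 14 of all modules. Libraries lay wholly higher for 0, 2 and 1 of the 7 at 1, 4 and 12 h (2.12%, 13.1% and 6.78% of all modules) and wholly lower for 0 each time (2.97%, 12.7% and 7.63%).

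Sec61, the channel itself, was not called in any comparison. Its group means ran from 1636 ± 9.63 CPM in the control at 0 h to 1956 ± 82.5 CPM in lower copper at 4 h, with single libraries between 1564 and 2256 CPM. Against the control, both copper levels lay at 0.18 ± 0.11 at 1 h (edgeR adjusted p = 0.796 for lower and 0.473 for higher copper), and at 1 h the lower copper libraries (1854 to 1982 CPM) did not overlap the controls (1628 to 1804 CPM). This varied with the treatment of the doubted control replicate 3, with 1628 CPM at 1 h and 2000.2 CPM at 4 h. With this pair exchanged the 1 h groups overlapped and the differences were 0.07 ± 0.11 for lower and 0.08 ± 0.11 for higher copper (edgeR adjusted p = 0.985 and 0.852). With the pair left out, the lower copper libraries at 1 h still lay above the controls. The differences at 1 h were then 0.13 ± 0.12 for both copper levels (edgeR adjusted p = 0.996 for lower and 0.704 for higher copper). At 4 h the exchange moved the differences from 0.14 and 0.13 to 0.25 and 0.23 (adjusted p = 0.382 and 0.181), with all libraries of both copper levels above the controls. In the 12 h controls (1672 to 1832 CPM) all 3 libraries lay above those of 0 h (1627 to 1646 CPM), a difference of 0.09 ± 0.11 (adjusted p = 0.656). At 12 h of higher copper, where TRAP and OST rose, Sec61 stood at 0.08 ± 0.11 (adjusted p = 0.699).

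N-glycan trimming, the step after transfer of the glycan, lay below the control in each of the 6 copper comparisons, between −0.13 and −0.05, and none was called. Its means fell between 1459 ± 176 CPM (lower copper 12 h) and 1685 ± 72.2 CPM (control 1 h). At 1 h its higher copper libraries (1516 to 1577 CPM) lay below all the controls (1603 to 1739 CPM), with a difference of −0.11 ± 0.08 (edgeR adjusted p = 0.488). The comparisons of a given time share their controls, so the repeated sign is not independent.

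HRD1/SEL1, the ubiquitin ligase of ERAD, had group means from 5098.5 ± 506 CPM in higher copper at 4 h to 5689 ± 206 CPM in higher copper at 12 h. Its groups overlapped in every comparison with a control and between copper levels. The effect of higher copper was −0.13 ± 0.10 at 4 h and 0.06 ± 0.10 at 12 h (edgeR adjusted p = 0.466 and 0.701), and the change of that effect between the times was 0.20 ± 0.14 (adjusted p = 0.876).

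COPII, the coat of vesicles that leave for the Golgi, had means from 3323 ± 268 CPM (control 0 h) to 3887 ± 318 CPM (higher copper 1 h). Its copper comparisons lay between 0.01 and 0.16 above the control, with 0 called. As deposited, each copper group overlapped its controls. With the doubted pair left out, all libraries of higher copper at 1 h and of both copper levels at 4 h lay above the remaining controls. Higher copper at 12 h spread widest, with 3343, 3486 and 4496 CPM, the last (replicate 3) the highest of all 30 libraries.

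Synthesis of the GPI anchor, a glycolipid that holds proteins to the outer membrane face, was lowest in higher copper at 4 h (844 ± 71 CPM) and at 1 h (858 ± 43.9 CPM). All 3 libraries lay below all 3 controls at both times, with 832 to 909 against 937 to 1044 CPM at 1 h and 762 to 892 against 920 to 1043 CPM at 4 h. The differences, −0.19 ± 0.10 and −0.20 ± 0.10, were not called (edgeR adjusted p = 0.392 and 0.236). At 12 h the groups overlapped, at −0.03 ± 0.10 (adjusted p = 0.844).

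**Figure D3:**
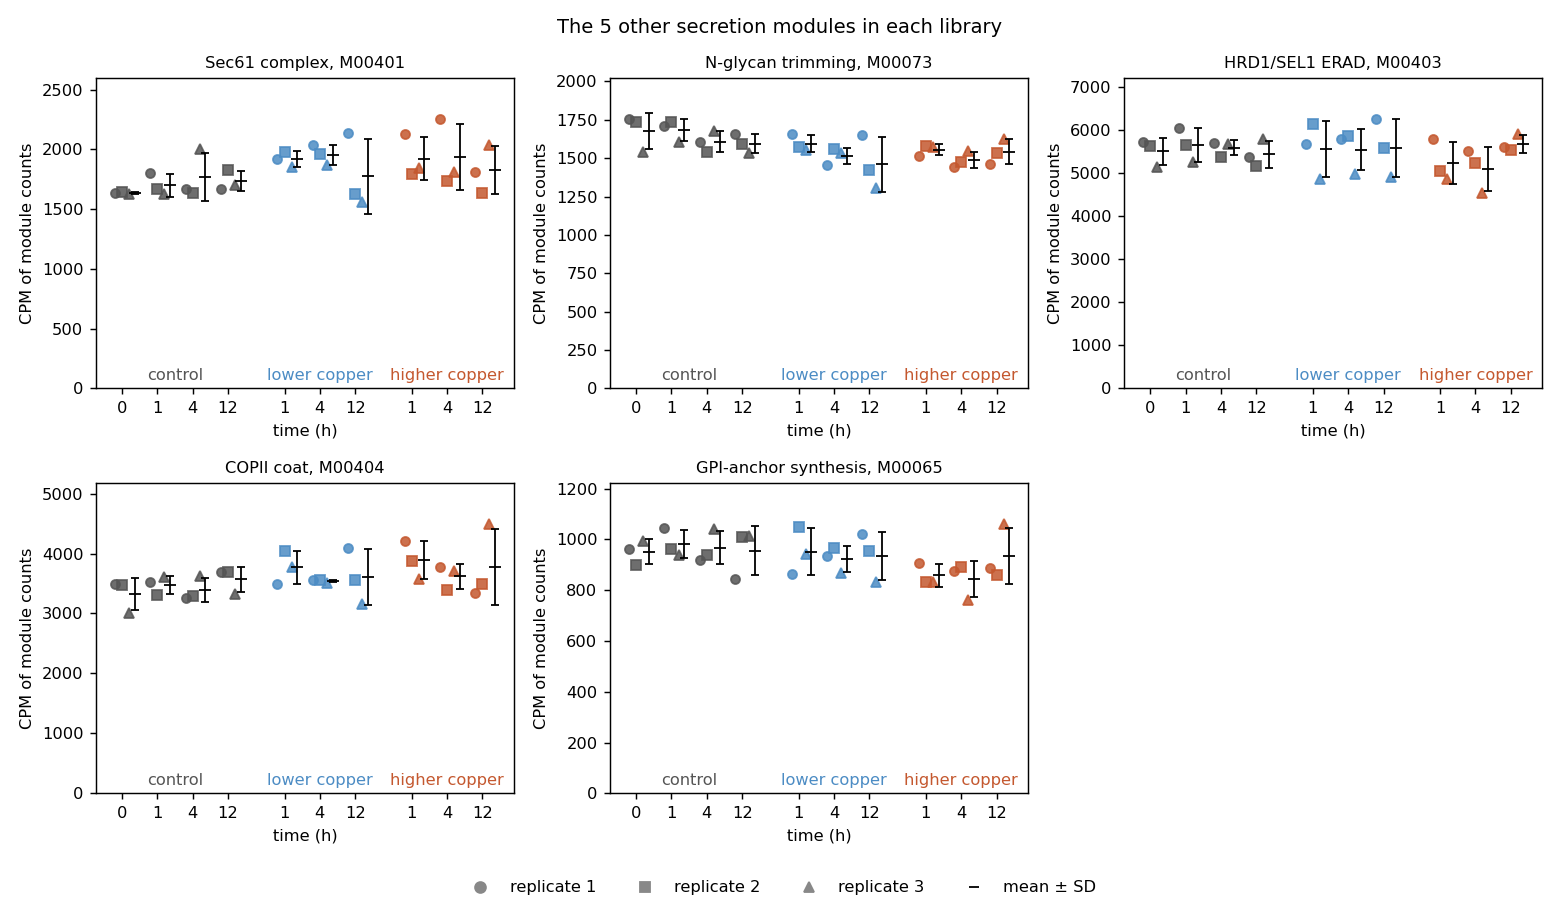
Levels of the 5 other secretion modules in every library, as CPM of module counts (vertical axes, from 0) by time in hours for control, lower copper and higher copper. Marker shapes give the replicate and black bars the mean ± SD of 3 libraries. Group means differ by 1.12- to 1.20-fold from lowest to highest, and replicate 3 of higher copper 12 h is the top library of its group in each panel.

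Of the 7 modules 2 rose and 0 fell in higher copper at 12 h, beside 16.5% of all modules called there, 8.9% rising and 7.63% falling. The libraries of the 2 groups did not overlap for 2 of the 7, both higher in copper, against 19.9% of all modules that lay wholly higher and 16.9% wholly lower. The median change of the 7 was 0.08, against −0.00074 over all modules. For the 5 modules not called, the 95% intervals lay within −0.24 and 0.31. In higher copper at 4 h 0 of 7 were called by edgeR, beside 8.47% of all modules, 3.39% rising and 5.08% falling. There 1 of the 7 had an unadjusted edgeR p under 0.05 and DESeq2 called 0, beside 61 and 29 of all 236 modules. At 1 h 0 of 7 were called, beside 5.08%, 2.97% rising and 2.12% falling. The unadjusted and DESeq2 counts at 1 h were 0 and 0 of the 7, beside 38 and 15 of all 236 modules. Wholly higher or lower libraries were found for 0 and 2 of the 7 at 1 h (10.6% and 9.32% of all modules) and for 1 and 1 at 4 h (16.9% and 17.4%). With the doubted pair exchanged these were 0 and 2 at 1 h (7.63% and 7.2%) and 2 and 1 at 4 h (17.8% and 17.4%). With the pair left out they were 1 and 2 at 1 h (15.7% and 11.9%) and 3 and 1 at 4 h (25.4% and 21.6%).

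Lower copper gave 0 of 7 by edgeR at 1, 4 and 12 h, beside 0%, 0% and 0.424% of all modules. At an unadjusted edgeR p under 0.05 there were 0 of the 7 each time, beside 20, 16 and 16 of all 236 modules. DESeq2 called 0 of the 7 each time, beside 1, 0 and 4 of all modules. Libraries lay wholly higher for 1, 0 and 0 of the 7 (9.75%, 7.63% and 3.81% of all modules) and wholly lower for 0 each time (5.08%, 5.93% and 4.24%). The 1 was Sec61. With the doubted pair exchanged, the counts higher and lower were 0 and 1 at 1 h (4.66% and 3.81% of all modules) and 2 and 1 at 4 h (13.1% and 11.9%). Without copper, the controls at 1, 4 and 12 h against 0 h also gave 0 of 7 by edgeR, beside 0.424%, 5.08% and 8.47% (0 unadjusted and 0 by DESeq2 each time). Of all 236 modules 20, 34 and 54 passed unadjusted, and DESeq2 called 5, 17 and 31. The edgeR calls among all modules split into 2.97% rising and 2.12% falling at 4 h and 4.24% each way at 12 h. Control libraries lay wholly higher than at 0 h for 0, 0 and 1 of the 7 (14.8%, 12.7% and 14.8% of all modules) and wholly lower for 0 each time (8.9%, 11% and 16.9%). With the pair exchanged, 1 module, Sec61, lay wholly higher at 1 h (16.1% of all modules), and also with the pair left out (18.6%). Between consecutive times the copper effect changed for 0 of the 7 modules in each of the 4 contrasts, beside 0% of all modules in each (0 unadjusted and 0 by DESeq2). Of all 236 modules 6 and 4 passed unadjusted for lower copper and 4 and 15 for higher copper. DESeq2 called 0 and 0 for lower and 0 and 1 for higher copper. The effect of higher copper on TRAP differed by 0.63 ± 0.41 between 12 and 4 h (edgeR adjusted p = 0.876), and that on OST by 0.05 ± 0.11 (0.979), so the called rises at 12 h were not shown to be larger than the differences at 4 h.

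**Figure D4:**
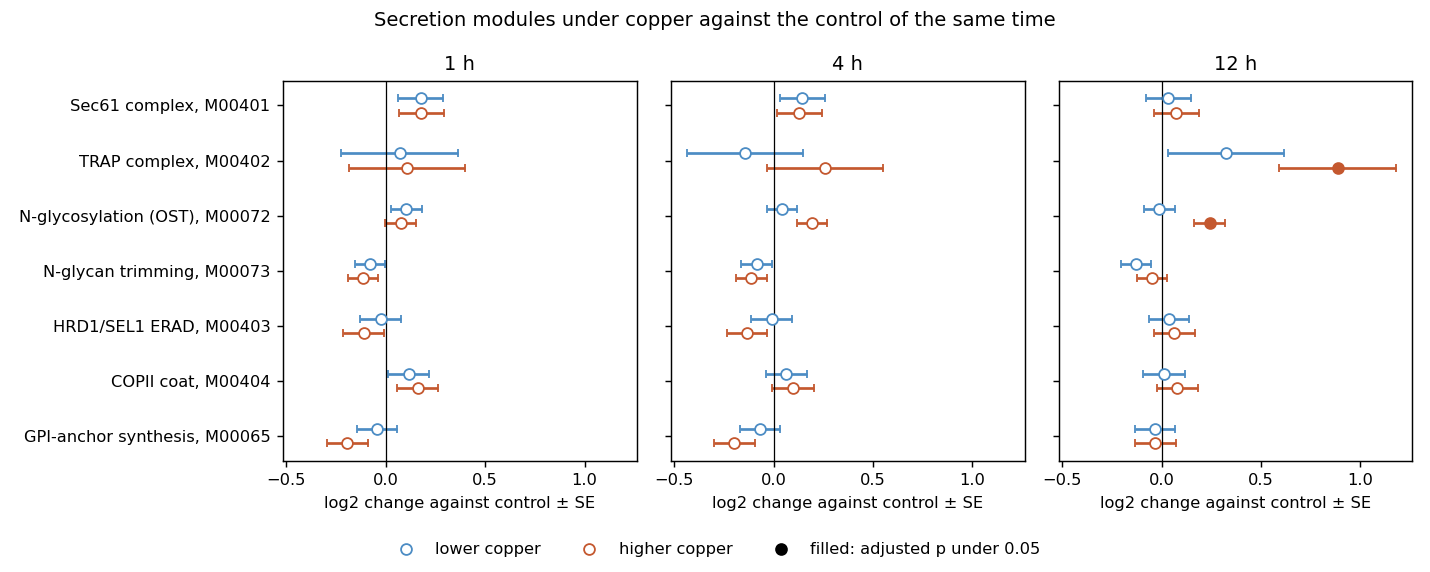
Change of each of the 7 modules against the control of the same time (log2, horizontal axis, with SE bars) at 1, 4 and 12 h for lower and higher copper. Filled points passed an adjusted p of 0.05. Only TRAP (0.89) and OST (0.24) at 12 h of higher copper are filled, with all 30 libraries fitted.

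The 3 libraries of higher copper at 12 h did not behave alike across the set. Replicate 3 was the highest of its group in 6 of the 7 modules, all but TRAP, and lowest in none. In lower copper at 12 h replicate 1 was highest in 5 and replicate 3 lowest in 6. What this spread between libraries contributed to the calls was not tested beyond the fits without single libraries given above.

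Of 14 further modules listed for glycan supply, secretion, protein degradation and vesicle sorting, 12 were in the table. In higher copper at 12 h 0 of the 12 rose and 1 fell, beside 8.9% of all modules rising and 7.63% falling. The 1 that fell was ESCRT-II (M00410), a complex that sorts membrane proteins at endosomes. ESCRT-II held 162, 151 and 133 CPM against 200, 182 and 255 CPM in the controls. It fell by 0.52 on the log2 scale (SE 0.15; edgeR adjusted p = 0.0219). The call was lost without replicates 2 (−0.53, adjusted p = 0.0553) or 3 (−0.44, 0.125) of higher copper 12 h or control 12 h replicate 3 (−0.37, 0.184). It was also lost in a fit of the compared groups alone (−0.51, 0.0962) and under gene-table scaling of the columns as deposited (−0.57, 0.245). Under that scaling with the doubted controls left out or exchanged the call was kept. The module that builds the glycan OST transfers (M00055, N-glycan precursor synthesis) went the other way from OST without passing, at −0.50 ± 0.23 (adjusted p = 0.133), with 3204 ± 323 CPM in higher copper and 4539 ± 567 CPM in the control. The V-type ATPase (M00160), a proton pump of internal membranes, lay at −0.43 ± 0.15 (adjusted p = 0.0591 in edgeR, 0.0416 in DESeq2). The proteasome, which degrades proteins exported by ERAD, lay at −0.23 ± 0.13 for its core (M00340) and 0.16 ± 0.07 for its regulatory particle (M00341), and neither passed (adjusted p = 0.208 and 0.135). These uncalled modules, unlike ESCRT-II, were picked after their values were seen.

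**Figure D5:**
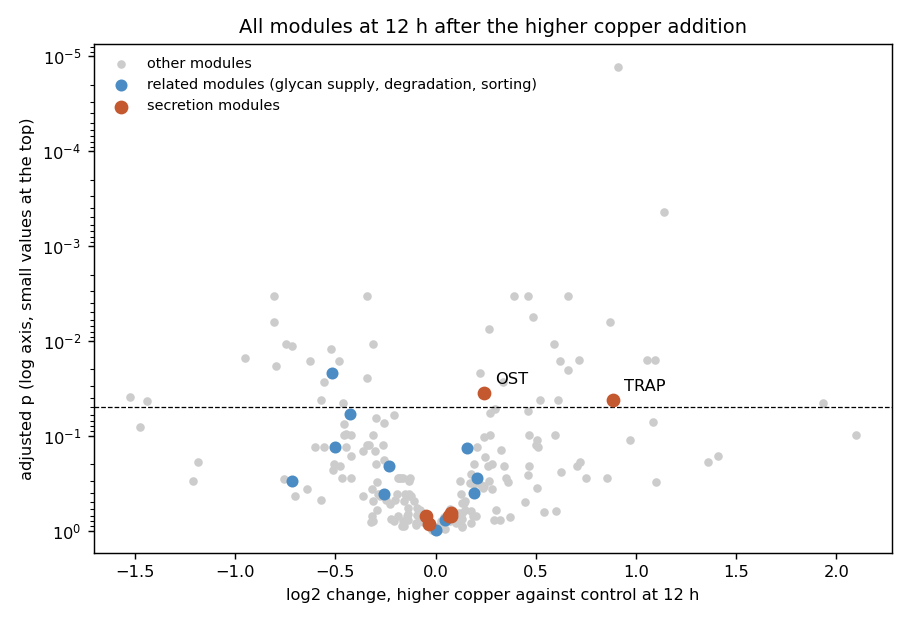
All 236 modules in higher copper against control at 12 h, with the log2 change on the horizontal axis and the adjusted p on an inverted log axis. Orange points are the 7 secretion modules, blue points the 12 related modules and grey points the rest, and the dashed line marks an adjusted p of 0.05. TRAP and OST lie above the line near it, among 39 called modules, and the other 5 secretion modules lie near 0 change.

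Earlier in higher copper, 1 of the 12 related modules was called at 1 h and 1 at 4 h, beside 5.08% and 8.47% of all modules. At 1 h the Sec secretion system (M00335), whose KEGG definition covers protein export channels, rose by 0.25 ± 0.07 (edgeR adjusted p = 0.0447). That call was lost without any 1 of the 6 libraries compared (changes from 0.22 to 0.28, adjusted p from 0.107 to 0.265). It was also lost with the doubted controls exchanged (0.20, adjusted p = 0.228) or left out (0.22, 0.198) and in a fit of the compared groups alone (0.22, 0.423). Under gene-table scaling the change was 0.41 (adjusted p = 0.373), or 0.20 (0.377) and 0.14 (0.623) with the doubted controls left out or exchanged. At 4 h ESCRT-I (M00409), which acts with ESCRT-II, fell by 0.88 on the log2 scale (SE 0.22; adjusted p = 0.00684). It was not called without higher copper 4 h replicate 1 (−0.70, adjusted p = 0.0809) or control 4 h replicate 2 (−0.68, 0.0741). Both modules were named after their values were seen, since no secretion module was called at these times.

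No source used here pairs genes with modules, so genes are given only as those whose levels ran most alike with a called module over the 30 libraries, among 5897 genes with a mean log2 CPM of at least 3. For TRAP these were OT_ostta15g02440 and OT_ostta15g01320, both on chromosome 15 of the RefSeq annotation of strain RCC4221, with Pearson's r of 0.92 and 0.89 across libraries (0.93 and 0.90 without the doubted pair). OT_ostta15g02440 held 17.7 ± 6.89 CPM of gene counts at 12 h of higher copper and 6.5 ± 1.97 CPM in the control, and OT_ostta15g01320 held 161 ± 20.8 and 94.5 ± 18.6 CPM (SD, n = 3). For OST they were OT_ostta02g03450 on chromosome 2 and OT_ostta08g04060 on chromosome 8, with r of 0.82 and 0.80 (0.83 and 0.78 without the pair). OT_ostta02g03450 held 89.6 ± 27.4 CPM at 12 h of higher copper against 33.1 ± 5.36 CPM in the control, and OT_ostta08g04060 held 12.2 ± 3.25 against 6.76 ± 1.72 CPM. These genes were picked for their likeness, so no test is given, and the libraries share depth and copper group with the modules. No source used here gives their functions.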

How the data were processed

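Per the labels' protocols, RNA was extracted with TRIzol and TruSeq Stranded mRNA libraries were sequenced on a HiSeq 2000. The deposited module table holds counts per KEGG module, built, per the series' design text, by homology to KEGG entries. The deposited gene table holds counts per gene for 7627 genes, not normalized by the authors. It was used to scale an alternative and to find genes of like pattern, and its first line, a column index without a gene name, was left out. No aligner, counting tool or genome build is named in these sources.

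Module counts were tested without a filter in R 4.3.3 with edgeR 4.0.16: TMM scaling, 1 quasi-likelihood fit of 10 group means over 30 libraries with 20 residual degrees of freedom, and Benjamini-Hochberg adjustment over 236 modules in each of 17 tests. These were copper against control (6), higher against lower copper (3), later against 0 h controls (3), changes of a copper effect between times (4) and any difference among groups (1). The SE is the log2 change over the square root of F. All modules of the set are named, related modules when called beside a member, and the 2 genes most correlated with each called module. Alternatives were DESeq2 1.42.0 size factors and test, a low-count filter, a replicate block, only the groups compared, gene-table scaling, the doubted controls exchanged or left out, and each library of the groups compared left out. The main fit did not pair libraries by replicate number, and only the replicate block used these numbers. Deviations from group means correlated above 0.1 in every pair of the same number only for higher copper against control at 1 h. The members and lists were chosen with earlier results of these data known. Gene locus tags were looked up in RefSeq genes of strain RCC4221. The authors' tables of gene comparisons were not used here.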

Additional observations from a re-analysis of the deposited data

How the results depend on the processing

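In higher copper at 12 h, where 2 modules were called, the count was 1 with only the groups compared, with both doubted controls left out, and with gene-table scaling with these left out or exchanged, 0 with gene-table scaling as deposited, and 0 to 2 without single libraries. For any difference among the groups, where 1 module was called, the count was 0 with gene-table scaling (OST adjusted p = 0.331), also with the doubted controls left out (0.175) or exchanged (0.14), and 0 to 1 without single libraries. Of counts of 0, that of higher copper at 4 h became 1 with the doubted columns exchanged and that of higher against lower copper at 12 h became 1 with the DESeq2 test. Between copper levels at 12 h DESeq2 called 14 of all 236 modules and edgeR 2. The other 13 counts, all 0, were 0 under all 10 alternatives and without single libraries. Gene-table scaling combined with the doubted controls left out or exchanged was added after seeing the data, as were the counts of groups that do not overlap with the doubted pair exchanged or left out. No called change of TRAP, OST, ESCRT-I, ESCRT-II or M00335 reversed. TRAP and OST in higher copper at 12 h ranged from 0.83 to 0.90 and 0.19 to 0.25 over these 10 alternatives, with adjusted p from 0.0163 to 0.116 and from 0.00534 to 0.635. By replicate number libraries paired in 1 comparison only: deviations from group means correlated above 0.1 in 12 of 36 pairs, and in every pair of 1 of 12 comparisons (higher copper at 1 h). The replicate block left 2 modules called in higher copper at 12 h, 0 in higher copper at 1 h, and changed no call of the 7 modules in the other comparisons. The low-count filter kept all 236 modules.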

Other observations

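A module outside the set also describes enzymes of the endoplasmic reticulum. Elongation of fatty acids there (M00415), which lengthens acyl chains beyond those made in the plastid, held 1422, 1319 and 1367 CPM at 12 h of higher copper against 2098, 2188 and 2462 CPM in the control. All 3 copper libraries lay below all 3 controls, and the module fell by 0.72 on the log2 scale (SE 0.18; edgeR adjusted p = 0.0113). At 4 h of higher copper it lay at −0.41 ± 0.18 (adjusted p = 0.157), and at 12 h of lower copper at −0.22 ± 0.18 (adjusted p = 0.986). The 12 h call was lost without higher copper 12 h replicate 3 (−0.72, adjusted p = 0.0617) and with gene-table scaling of the columns as deposited (−0.77, adjusted p = 0.162). Under that scaling with the doubted controls left out or exchanged the call was kept. High-mannose N-glycan synthesis (M00074) held 36.7 CPM in higher copper at 12 h against 40.4 CPM in the control, and was not called (−0.14 ± 0.29, adjusted p = 0.777). Both modules were picked after their values were seen.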
